A study of Homo sapiens with 24 samples.

Results

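The cytosolic ribosomal protein genes were taken as all rows of the count table whose symbol is RPL or RPS followed by a number and at most an A, X or L and a digit, together with RPLP0, RPLP1, RPLP2 and RPSA. The rule found 85 genes among 37411. Of these, 77 are core members, 46 of the large and 31 of the small subunit, and 8 are paralogues whose symbol carries an added L or L1. The rule itself uses symbols and no measured value. FAU and RPL36AL, which also code for ribosomal proteins, fall outside it.

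The cells were PC9, a single established human line of non-small cell lung cancer, grown in RPMI-1640 with serum and antibiotics. After a pair of rinses with PBS they received medium with or without asparagine, an amino acid that cells can also make themselves. The medium also held vehicle (0.004% DMSO) or ISRIB at 200 nM. ISRIB binds eIF2B, the exchange factor of translation initiation, and keeps it active when the integrated stress response would lower its activity. RNA was taken 6 or 24 h later, from 3 replicates of each of the 8 groups (24 libraries), described as biological. All groups were thus either with or without asparagine, with vehicle or ISRIB, and at 6 or 24 h.

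A ribosome has a large subunit, which forms peptide bonds, and a small subunit, which reads the messenger RNA. Each holds 1 copy of most proteins of its set. Growing cells make these messages in large amounts. Their transcripts usually start with a C followed by a run of C and T, the terminal oligopyrimidine tract, through which growth signalling by mTORC1 and the RNA-binding protein LARP1 sets their translation. Several paralogue genes code for close copies that can take the place of a core protein or act in other steps.

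The start of the transcript is shown first for the genes on which the results turn, beside their paralogues or core partners, because it separates most core members from most paralogues. Each window runs from 10 bases before to 20 bases from the start listed by RefSeq (GRCh38.p14), 5′ to 3′ on the transcribed strand. Capitals mark a C followed by at least 4 bases that are C or T, with that C within 5 bases of the listed start.
RPL4: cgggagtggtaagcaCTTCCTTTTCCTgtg
RPS25: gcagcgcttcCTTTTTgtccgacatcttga
RPL13A: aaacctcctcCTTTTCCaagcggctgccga
RPL10A: aagacatgctagtCTCTTTTCCggttagcg
RPL18: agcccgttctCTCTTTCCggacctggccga
RPL27: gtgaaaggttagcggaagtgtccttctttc
RPL26: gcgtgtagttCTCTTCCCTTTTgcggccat
RPL26L1, first listed start: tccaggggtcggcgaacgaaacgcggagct
RPL26L1, other listed start: ggcggcggccacaaacccgcaggcacgccg
RPL22: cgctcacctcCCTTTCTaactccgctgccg
RPL22L1: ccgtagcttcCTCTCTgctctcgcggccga
RPS27: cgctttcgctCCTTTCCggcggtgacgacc
RPS27L: gatgccgagcgcagatcgcttgcagcttgc
RPL7L1: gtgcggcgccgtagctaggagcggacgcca

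RPL4 was the gene on which most of the results turned, and its window lies at chr15:66504836-66504865 on the minus strand. The windows of RPL26 (chr17:8383174-8383203, minus strand) and RPL26L1 (chr5:172958719-172958748 and chr5:172958870-172958899, plus strand) are those of a core gene and its paralogue. A tract was present in 53 of the 62 core members with a window (85.5%), 33 of 38 in the large and 20 of 24 in the small subunit. Among all 27305 genes of the table with a window, 25.2% held one, as did 16 of 69 genes for mitochondrial ribosomal proteins. Of the 5 paralogues with a window, RPL22L1 alone held a tract. RPL27 had none at its listed start. The match describes letters only, and says nothing of how a gene was regulated here.

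Levels are given in CPM, each gene's reads per unit of library size in edgeR's usual scale, after scaling of the libraries by the TMM method. The 24 libraries held 16737384 to 27495861 counts, and 17409 genes passed the filter on low counts. All 8 epithelial markers, EPCAM and 4 keratins among them, had a mean of at least 5 CPM, while none of 4 leukocyte markers, 1 of 5 fibroblast markers (COL1A1) and 1 of 3 endothelial markers (CDH5) did. The slope of a library's log2 deviations on the GC content of the transcript ran from -0.36 to 0.21 per 10 points. It was most negative in replicate 3 of ISRIB with asparagine at 24 h (-0.36), replicate 3 of ISRIB without asparagine at 6 h (-0.35) and replicate 1 of ISRIB with asparagine at 6 h (-0.19).

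The 85 genes held 2.07% to 2.67% of the counts of a library, with a median of 2.47%. Of these genes, 79 passed the filter: all 46 core members of the large subunit, 28 of the 31 of the small subunit, and 5 paralogues. Of the genes not tested, RPS9 and RPS18 had 3 and 1 counts in the 24 libraries together, although every ribosome carries these proteins. The paralogues RPL10L, RPL3L and RPS10L, with 2, 88 and 136 counts, were not tested either. The annotation calls RPS10L a processed pseudogene.

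Ribosomal protein genes have many pseudogene copies, and the table counted reads on 644 of them, 0.753% to 0.954% of the counts of a library. Of the reads on core members and their own pseudogenes together, 26.7% were counted on pseudogenes, and the median over the core members was 19.7%. The share was above 50% for 19 core members and below 10% for 34. For RPS18, a protein of the head of the small subunit, nearly all reads were on pseudogenes. The share was 94.4% for RPS3A, 58.9% for RPLP0 of the stalk, 33.0% for RPL4, 0.327% for RPS3 and 0 for RPS25, which had no pseudogene in the table. Levels of members with a high share are therefore levels of the reads assigned to the gene, and their size relative to other genes is uncertain.

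**Figure D1:**
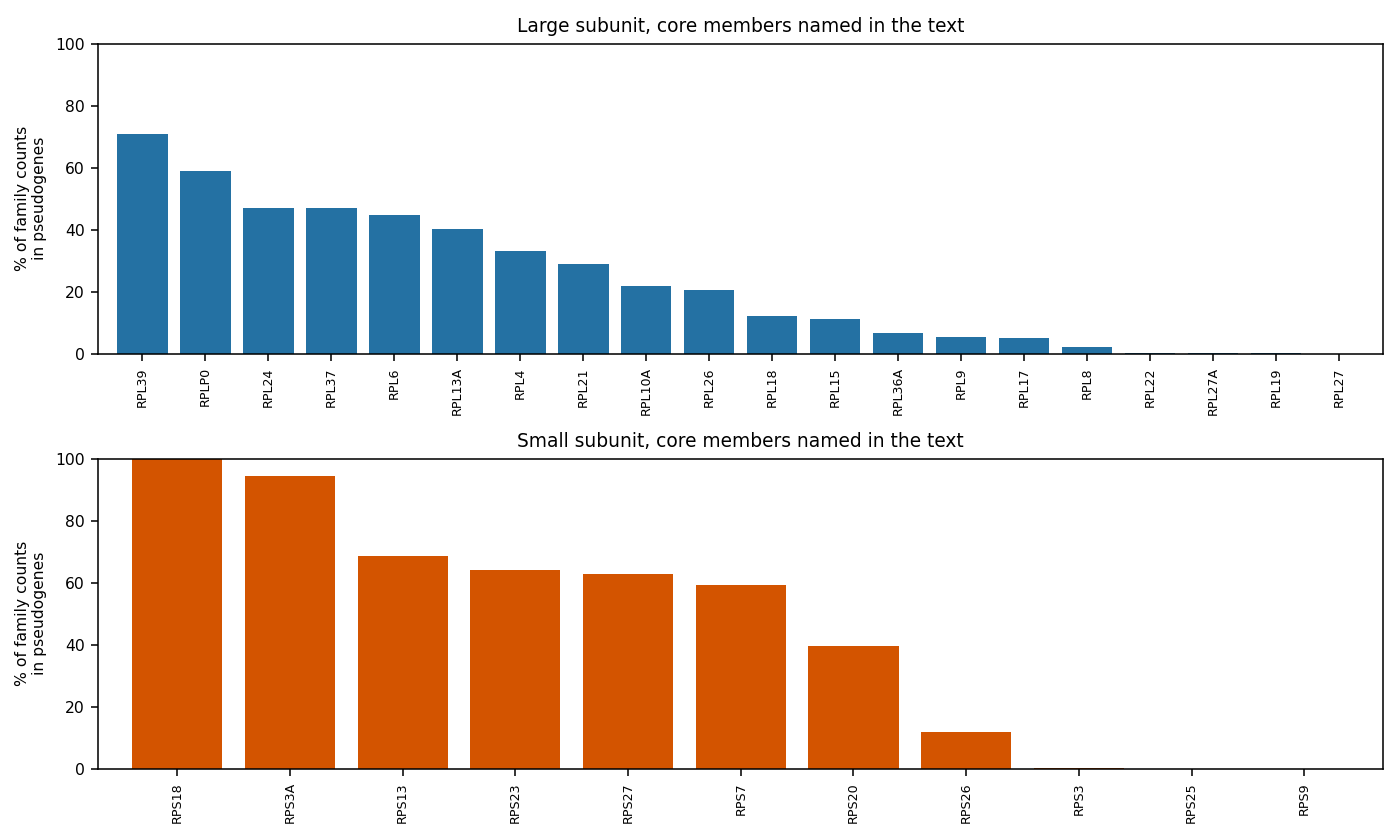
Percentage of the reads on a core member and its pseudogenes that were counted on the pseudogenes, over all 24 libraries (bars; large subunit above, small subunit below), for core members named in the text. RPS18 and RPS3A have nearly all reads on pseudogenes, while RPS25 has none.

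Per kilobase of annotated exon, the levels of RPL8 (561 ± 70.7 CPM per kilobase, SD, n = 24) and RPL19 (373 ± 19.9) were among the 3 highest of the core members tested. The lowest were those of RPS27 (1.92 ± 0.30), RPL36A (2.09 ± 0.61) and RPL21 (2.92 ± 0.45). The exon length counts the exons of all annotated transcripts. Proteins present in equal numbers in a ribosome thus had assigned reads per length from 1.92 to 561, and 62.7% of the family reads of RPS27 were on pseudogenes.

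Asparagine withdrawal alone was the first comparison, asking what loss of the amino acid does to these genes. With vehicle at 6 h none of the 79 genes passed the edgeR quasi-likelihood test at a Benjamini-Hochberg adjusted p of 0.05, against 4.57% of all genes (3.31% higher and 1.26% lower). The lowest adjusted p was 0.294, for RPL27A, and 1 gene had an unadjusted p below 0.05. At 24 h none passed either, against 0.00574% of all genes (1 gene, higher). An unadjusted p below 0.05 was found for 14, each with an edgeR adjusted p of 0.671. Counts of unadjusted p, here and below, stand without the share of all genes and are not read as results. DESeq2 also called none at either time. Changes are given throughout as log2 changes from the edgeR fit with their SE. The median log2 change at 24 h was -0.13 over the large and -0.11 over the small subunit, with 0.01 over all genes tested. Without vehicle replicate 1 of the medium without asparagine the large-subunit median was -0.07. In bulk RNA, fewer cells of a kind and less RNA per cell cannot be told apart.

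With ISRIB present, withdrawal at 6 h called none of the 79 genes by edgeR (2.3% of all genes, 1.63% higher and 0.666% lower) or by DESeq2, and none had an unadjusted p below 0.05. The core median was -0.09, beside 0.00 over all genes tested. It rested in part on single libraries of the ISRIB groups at 6 h: it was -0.04 without replicate 3 and -0.14 without replicate 2 of the medium without asparagine, and -0.03 without replicate 3 of the medium with it. At 24 h with ISRIB, 2 of the 79 genes rose and 8 fell, against 22.1% of all genes (9.97% higher and 12.2% lower). RPL4 fell most, by 0.87, and RPL26L1 rose most, by 0.49. ISRIB against vehicle in medium with asparagine called none of the genes at 6 or 24 h, where 0% of all genes passed, and 0 and 2 genes had an unadjusted p below 0.05. DESeq2 called none there either.

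ISRIB against vehicle without asparagine asks what the drug adds in starved cells. At 6 h no gene of the group passed the edgeR test or DESeq2 (2.19% of all genes by edgeR, 0.551% higher and 1.64% lower), with 5 unadjusted p below 0.05 and a core median of -0.10, beside 0.01 over all genes tested. This median was -0.06 without vehicle replicate 2, -0.15 without ISRIB replicate 2, and -0.06 without the 3 libraries of lowest GC slope. At 24 h, 6 genes rose and 4 fell, against 21.7% of all genes (10.1% higher and 11.6% lower). The core median was 0.06, with 0.04 over the large and 0.09 over the small subunit, and 0.00 over all genes tested. The large-subunit median was -0.02 with a length correction and -0.02 without vehicle replicate 1, which also brought the core median to -0.01.

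**Figure D2:**
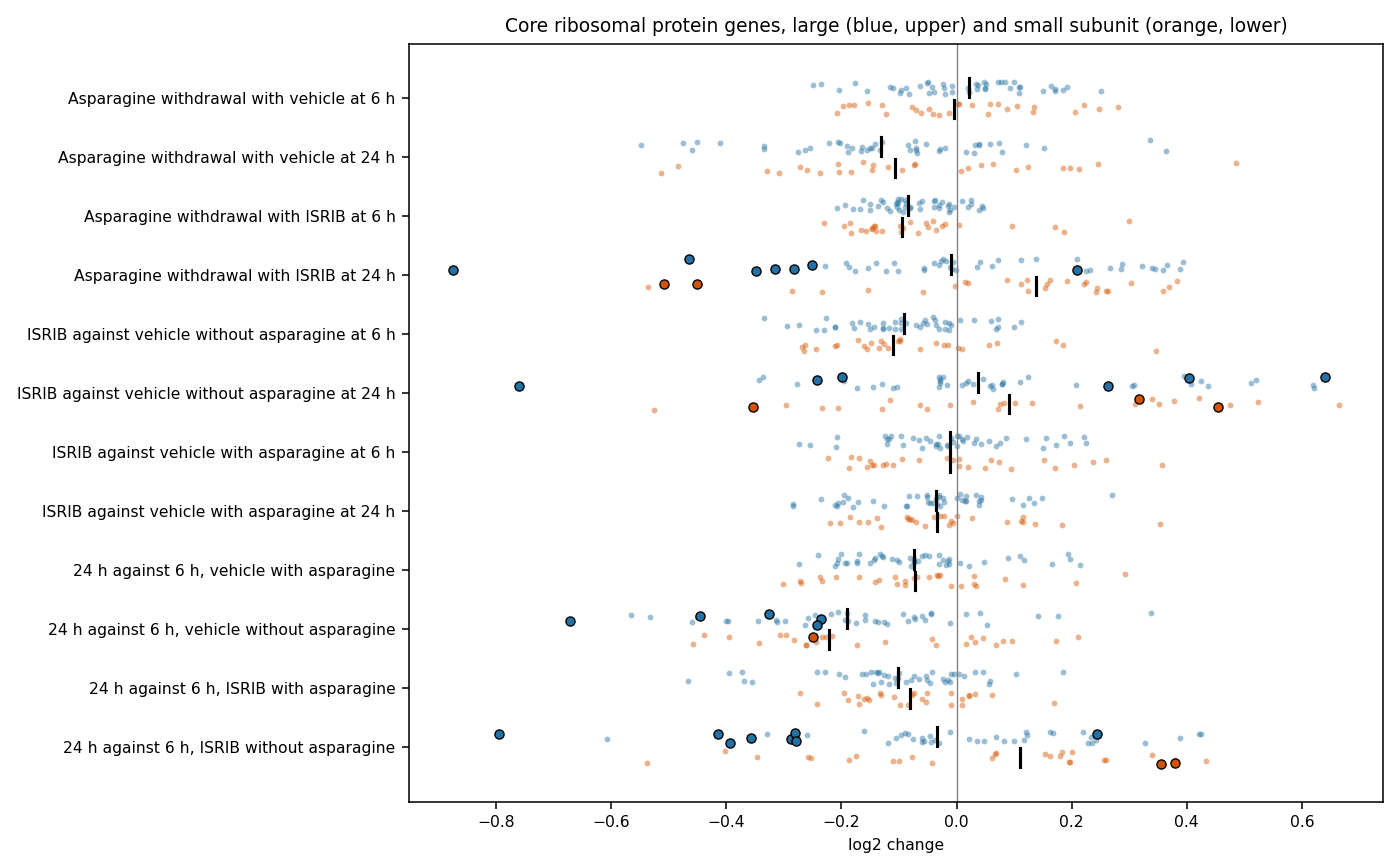
Log2 change of each core member tested in 12 comparisons of 2 groups (points; blue, large subunit, upper row; orange, small subunit, lower row). Filled points with a black edge passed the test, and vertical bars are the medians. Points that passed occur only in comparisons that include a group without asparagine at 24 h, and RPL4 lies apart at the left in 3 of them.

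RPL4 is a protein of the large subunit with a long loop in the wall of the tunnel through which the new peptide leaves. The gene (ENSG00000174444.14) spans chr15:66498015-66524532 on the minus strand in GENCODE 29. Without asparagine and with ISRIB at 24 h its 3 libraries had 404, 411 and 398 CPM. The vehicle libraries of the same medium and time had 649, 644 and 764 CPM, and the libraries with ISRIB and asparagine at 24 h had 721, 696 and 809. In every other group the lowest library had 635 CPM and the highest 808, so the 3 libraries were below all of the other 21.

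The change of RPL4 against vehicle was -0.76 ± 0.08 (log2, SE; edgeR quasi-likelihood test, adjusted p = 2.21e-06). Against ISRIB with asparagine at 24 h it was -0.87 ± 0.08 (adjusted p = 2.54e-07), and against ISRIB without asparagine at 6 h it was -0.79 ± 0.08 (adjusted p = 4.21e-07). The interaction of medium and drug at 24 h was -0.80 ± 0.12 (adjusted p = 0.000235), in a test that called 3 of the 79 genes (2 higher, 1 lower) and 9.06% of all genes (3.47% higher, 5.59% lower). The difference of the ISRIB response without asparagine between 24 h and 6 h was -0.67 ± 0.12 (adjusted p = 0.00123), where 3 of the 79 genes (2 higher, 1 lower) and 7.59% of all genes (3.35% higher, 4.24% lower) were called. At 6 h the interaction called none of the 79 genes by edgeR or DESeq2 (0.718% of all genes, 0.0574% higher and 0.661% lower), and 3 had an unadjusted p below 0.05. RPL4 passed in all 35 alternatives of each of its 5 comparisons, 24 of which leave out 1 library. These comparisons share the group without asparagine and with ISRIB at 24 h. The number of genes called in the interaction at 24 h was 1 without vehicle replicate 1 or ISRIB replicate 3 without asparagine, or vehicle replicate 2 with asparagine, all at 24 h, and 5 without ISRIB replicate 3 without asparagine at 6 h. For the difference between times, within the medium without asparagine, it was 1 without vehicle replicate 1 at 6 h, vehicle replicate 1 or 3 at 24 h, or ISRIB replicate 3 at 24 h, and 8 and 6 without ISRIB replicate 2 at 6 h and vehicle replicate 2 at 24 h. It was also 8 without ISRIB replicate 3 with asparagine at 24 h.

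Reads of RPL4 can be divided with a near copy. RPL4P4, a processed pseudogene with 98.4% identity to RPL4 over 1284 bases, had 197, 207 and 209 CPM in the ISRIB group without asparagine at 24 h, and 323, 335 and 379 with vehicle. Its change of -0.76 ± 0.08 (adjusted p = 1.43e-06) equalled that of RPL4. With the counts of RPL4 and its pseudogenes summed, the change was -0.75 (adjusted p = 6.76e-07). The gene span of ZWILCH, a kinetochore gene on the opposite strand, overlaps that of RPL4 over 19574 bases. ZWILCH had 39.0, 51.8 and 40.0 CPM with ISRIB and 48.0, 51.2 and 58.5 with vehicle. Its libraries overlapped between the groups, and its level was below that of RPL4 in every library. Whether the counting used strand is not given in the sources used here.

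**Figure D3:**
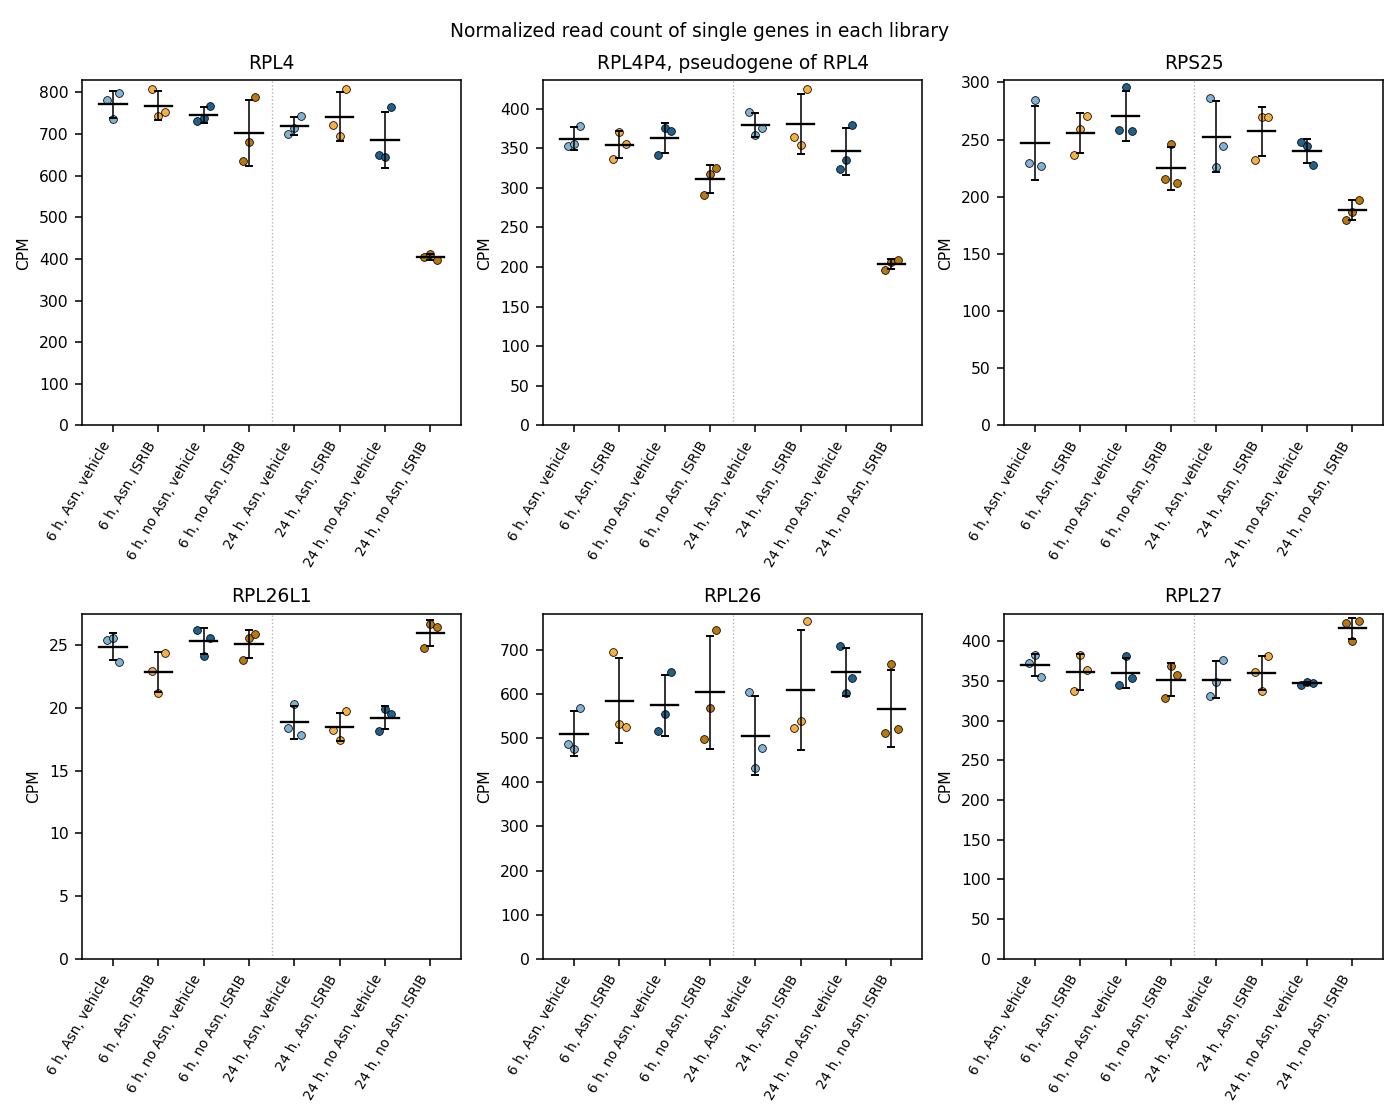
CPM of 6 genes in each library (points; 3 per group), with the group mean and SD (bars); 6 h groups left and 24 h groups right of the dotted line. RPL4 and RPL4P4 are lowest in the last group, without asparagine and with ISRIB at 24 h, where RPL26L1 is higher than in the other groups at 24 h and RPL26 overlaps the other groups.

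Other core members of the large subunit moved less. RPL37, a small zinc-binding protein of the large subunit, had 621, 561 and 704 CPM without asparagine and with ISRIB at 24 h and 384, 469.8 and 356 with vehicle. It rose by 0.64 ± 0.20 (edgeR quasi-likelihood test, adjusted p = 0.0264). Its vehicle libraries at 24 h were lower than at 6 h (569.6, 606 and 488), and the drug group lay within the range of the 6 h libraries of all groups (325 to 679) except for 1 library. The call was lost without replicate 1 or 3 of either group, and the change was 0.44 (adjusted p = 0.0554) with pseudogene counts added.

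RPL10A, the protein of the mobile L1 stalk that the leaving transfer RNA passes, had 312, 343 and 328 CPM with ISRIB and 373, 374 and 415 with vehicle, without asparagine at 24 h. It fell by 0.24 (SE 0.08, adjusted p = 0.0374), and the groups did not overlap. This call too was lost without replicate 1 or 3 of either group, and in 7 of 35 alternatives in all. Against ISRIB with asparagine at 24 h RPL10A also fell, by 0.25 ± 0.08 (edgeR, adjusted p = 0.0304).

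RPL24, which forms a bridge to the small subunit, had 232, 268 and 250.2 CPM in the ISRIB group without asparagine at 24 h and 287, 321 and 427 with ISRIB and asparagine. It fell by 0.46 ± 0.13 (edgeR quasi-likelihood test, adjusted p = 0.0131), a call lost in 3 of 35 alternatives. These included the runs without replicate 1 of the first or replicate 3 of the second group. Against vehicle without asparagine it did not pass (-0.28 ± 0.13). RPL27, another protein of the large subunit, had 423, 401 and 425 CPM with ISRIB and no asparagine at 24 h, above 346, 349 and 347 with vehicle. Its withdrawal response with ISRIB, 0.21 ± 0.07 (adjusted p = 0.0435), was lost in 21 of 35 alternatives, 16 of which leave out 1 library. The remaining 4 calls for ISRIB against vehicle, named to complete the count, were rises of RPL27 (0.26), RPL18 (0.40) and RPS3 (0.32) and a fall of RPL15 (-0.20).

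In the small subunit, RPS25 had the clearest fall. This protein sits near the path of the transfer RNAs and is needed by some viral internal ribosome entry sites. Without asparagine at 24 h its libraries had 180.0, 187 and 197 CPM with ISRIB and 248, 244 and 228 with vehicle. The 3 ISRIB libraries were the lowest of all 24, since the next had 212 CPM. RPS25 fell by 0.35 ± 0.10 (SE; edgeR quasi-likelihood test, adjusted p = 0.0185), a call lost without replicate 1 of either group. Against ISRIB with asparagine it fell by 0.45 ± 0.10 (edgeR, adjusted p = 0.00331). The interaction, -0.38 ± 0.15, did not pass (edgeR, adjusted p = 0.0970).

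RPS20, in the head of the small subunit, had 176, 161 and 203 CPM with ISRIB and 124, 140.2 and 129.8 with vehicle, without asparagine at 24 h. It rose by 0.45 ± 0.13 (edgeR quasi-likelihood test, adjusted p = 0.0189), which was lost without vehicle replicate 1 or 3 or ISRIB replicate 3. Its vehicle libraries with asparagine at 6 h had 146, 199 and 141 CPM, a range that overlaps the drug group. RPS26, at the exit of the messenger RNA channel, fell by 0.51 ± 0.18 on withdrawal with ISRIB at 24 h (edgeR, adjusted p = 0.0499). Its groups overlapped (7.11, 7.99 and 6.02 against 7.86, 11.7 and 10.5 CPM), and the call was lost in 20 of 35 alternatives, 16 of which leave out 1 library.

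The count of calls for ISRIB against vehicle without asparagine at 24 h depended on the libraries. It was 20 without replicate 3 of ISRIB with asparagine at 24 h and 19 without replicate 3 of ISRIB without asparagine at 6 h, neither of which belongs to the groups compared but both of which enter the shared estimate of spread. It was 3 without replicate 1 of either group compared, 5 without vehicle replicate 3 and 4 without ISRIB replicate 3. With the 3 libraries of the most negative GC slope left out together it was 31, 24 up and 7 down, and with a GC correction 20, 15 up and 5 down, where the uncorrected split was 6 up and 4 down. The mean GC slope was 0.10 in the ISRIB group and -0.11 in the vehicle group. The correction with the replicate block gave 25. For withdrawal with ISRIB the count was 6 without replicate 1 or 3 of the group without asparagine, and 14 with the GC correction (5 up, 9 down). The shares of all genes called under these settings are not given here. The shifts are therefore not read as particular to the ribosomal protein genes.

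Of the paralogues, RPL26L1 moved most clearly. It codes for a close copy of RPL26, a protein near the exit of the peptide tunnel, and its messenger RNA is 83.3% identical to that of RPL26 over 329 aligned bases. At 24 h its libraries had 24.8, 26.7 and 26.4 CPM without asparagine and with ISRIB, against 18.2, 19.9 and 19.5 with vehicle and 18.2, 17.5 and 19.7 with ISRIB and asparagine. The 12 libraries at 6 h ran from 21.2 to 26.2 CPM, and the other 9 libraries at 24 h, between 17.5 and 20.3, lay below all of them. Of the ISRIB group without asparagine at 24 h, 1 library lay within the 6 h range and 2 just above it.

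The rise of RPL26L1 against vehicle was 0.44 ± 0.09 (edgeR quasi-likelihood test, adjusted p = 0.00115) and against ISRIB with asparagine 0.49 ± 0.09 (adjusted p = 0.000297), and both passed in all 35 alternatives. The interaction was 0.47 ± 0.12 (adjusted p = 0.0207). It was lost in 5 of 35 alternatives. They included those without vehicle replicate 1, vehicle replicate 2 with asparagine or ISRIB replicate 3, all of 24 h. The first and last of these libraries were without asparagine. The difference of the drug response between times was 0.45 ± 0.12 (adjusted p = 0.0274), lost in 10 of 35 alternatives, 7 of which leave out 1 library of the 4 groups it compares. RPL26 itself had 512, 668 and 521 CPM with ISRIB and 709, 603 and 636 with vehicle, and its groups overlapped (-0.20 ± 0.17, not passed). An antisense gene of 1.45 CPM overlaps RPL26L1 over 664 bases.

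RPL22L1, the paralogue of the RNA-binding protein RPL22, varied more between libraries of a group. It had 41.1, 47.4 and 61.5 CPM at 6 h and 33.1, 29.3 and 26.2 at 24 h with vehicle without asparagine. It fell over time by 0.76 ± 0.23 (edgeR quasi-likelihood test, adjusted p = 0.0167), a call lost without replicate 3 of either group. With ISRIB and no asparagine it fell by 0.66 ± 0.23 (edgeR, adjusted p = 0.0285), where the groups overlapped and 1 library at 6 h, with the second most negative GC slope, had 80.7 CPM. That call was lost without this library (replicate 3) and without replicate 1 or 3 at 24 h, and in 5 of 35 alternatives in all. RPL22 had 104 to 123 CPM in all 24 libraries and passed in no comparison.

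RPL7L1, which resembles an assembly factor of the large subunit, was lower at 24 h in all 4 media. Its 12 libraries at 6 h had 197 to 264 CPM and its 12 at 24 h 157 to 205. It fell by 0.30 (vehicle with asparagine), 0.29 (vehicle without), 0.32 (ISRIB with) and 0.32 (ISRIB without asparagine), with an SE of 0.10 each (edgeR, adjusted p = 0.0344, 0.0354, 0.0261 and 0.0161). With asparagine, the vehicle call was lost without any 1 of 5 of its 6 libraries (all but replicate 2 at 24 h). The ISRIB call was lost without replicate 1 or 3 at 6 h or replicate 1 or 2 at 24 h. Each of these 2 calls was lost in 6 of 35 alternatives in all.

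RPL39L, a paralogue of RPL39 known from the testis, had 35.4, 29.6 and 31.0 CPM with ISRIB and 25.9, 25.7 and 27.2 with vehicle, without asparagine at 24 h. These did not overlap, but the change of 0.29 ± 0.10 did not pass (edgeR, adjusted p = 0.0536). RPS27L, a paralogue of RPS27 known as a p53 target, ran from 13.7 to 20.6 CPM over all 24 libraries and passed in no comparison. Its gene span overlaps that of LACTB, on the opposite strand, over 16190 bases. On vehicle withdrawal at 24 h it changed by 0.36 ± 0.12 (edgeR, adjusted p = 0.671), with 14.7, 13.7 and 14.8 CPM with and 17.7, 19.0 and 18.6 without asparagine. RPL3L, known from muscle, and RPL10L, known from the testis, stayed below 0.39 CPM in every library.

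Time was compared within each medium. With asparagine, 2 of the 79 genes fell from 6 to 24 h with vehicle (18.8% of all genes called, 9.34% higher and 9.47% lower) and 2 with ISRIB (17.4%, 8.75% higher and 8.62% lower), in each case RPL26L1 and RPL7L1. RPL26L1 fell by 0.40 ± 0.09 with vehicle (edgeR, adjusted p = 0.00227) and by 0.31 ± 0.09 with ISRIB (adjusted p = 0.0155). The first call was lost in 1 of 35 alternatives. The second was lost in 5, among them the runs without replicate 2 at 24 h or replicate 3 at 6 h. The vehicle count was 1 without any of the libraries on which RPL7L1 depended. The ISRIB count was 4 without replicate 1 at 6 h, 1 without replicate 1 at 24 h and 0 without replicate 3 at 6 h.

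Without asparagine and with vehicle, 9 of the 79 genes fell and none rose, against 25.4% of all genes (12.2% higher and 13.2% lower). The median was -0.19 over the large and -0.22 over the small subunit, beside 0.00 over all genes tested. The small-subunit value was -0.14 without replicate 1 at 24 h and -0.15 without replicate 2 at 6 h. RPL13A, a protein that can leave the ribosome as part of an interferon-activated inhibitor of translation, fell by 0.45 ± 0.10 (edgeR, adjusted p = 0.00219), from 708, 769.6 and 697 to 484, 544 and 568 CPM. RPL17, at the tunnel exit, fell by 0.67 ± 0.21 (edgeR, adjusted p = 0.0248) at only 5.03 to 10.8 CPM, a call lost without replicate 2 or 3 at 6 h or replicate 3 at 24 h. Without those libraries the count was 4, 5 and 4. Other falls were those of RPL26L1, RPL22L1, RPL8, RPL7L1, RPS23, RPL6 and RPL15.

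Without asparagine and with ISRIB, 3 genes rose and 9 fell from 6 to 24 h, against 32.3% of all genes (14.5% higher and 17.8% lower). RPS7, a protein of the small subunit with a part in its assembly, rose by 0.38 ± 0.10 (edgeR, adjusted p = 0.00469), from 162, 189 and 153 to 207, 234 and 215 CPM, and passed in all 35 alternatives. RPL27 rose by 0.24 and RPS20 by 0.35. The first was lost in 4 of 35 alternatives, among them the run without replicate 1 at 6 h. The second was lost in 18 of 35 alternatives, 13 of which leave out 1 library. RPL21 fell by 0.41 ± 0.14 (edgeR, adjusted p = 0.0267) at 5.18 to 8.12 CPM, a call lost in 6 of 35 alternatives. These included the runs without replicate 1 or 3 at 6 h or replicate 2 or 3 at 24 h. The count was 7 without replicate 1 or 3 at 24 h and 6 without replicate 3 at 6 h.

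The 2 subunits were then compared as sums. The core members of the large subunit had 14835 ± 816 CPM together (SD, n = 24) and those of the small subunit 9200.0 ± 498. Their ratio was 1.61 ± 0.04, from 1.51 to 1.67. It was lowest without asparagine and with ISRIB at 24 h, at 1.54 ± 0.005 (SD, n = 3), next lowest with vehicle in the same medium and time (1.58 ± 0.06), and between 1.62 and 1.65 in the other groups. The vehicle libraries included the lowest single ratio, so these 2 groups overlapped. With the reads on pseudogenes added they did not: the ratio was 1.64 ± 0.009 with ISRIB (1.63 to 1.65) and 1.72 ± 0.05 with vehicle (1.67 to 1.77), and the means of the other groups ran from 1.73 to 1.78. RPL4 bears on the ratio: without it, and without pseudogene reads, the 2 groups stood at 1.50 ± 0.004 and 1.50 ± 0.06 and the others at 1.54 to 1.57. The ratio with pseudogenes also counts RPL4P4, at a mean of 204 CPM with ISRIB and 346 with vehicle in these 2 groups. That ratio was not taken without RPL4 and RPL4P4. No test was made of a sum.

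**Figure D4:**
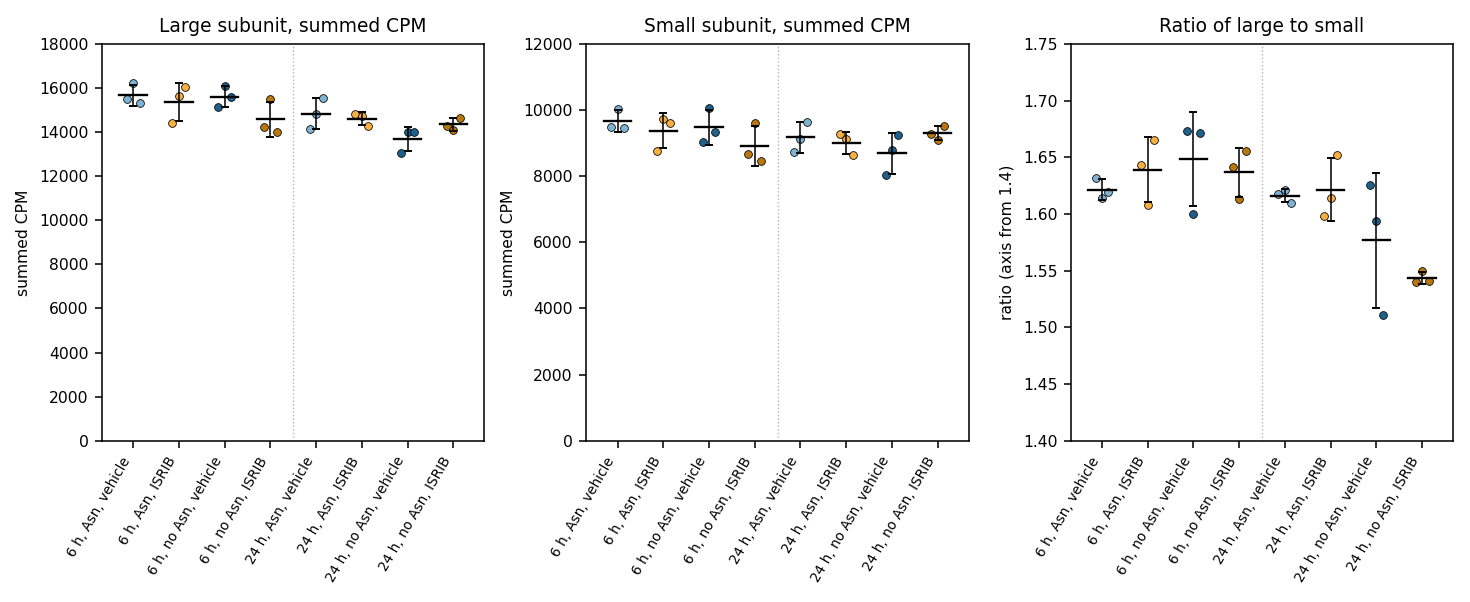
Summed CPM of the core members of each subunit and their ratio in each library (points; 3 per group), with group mean and SD (bars); the ratio axis starts at 1.4. The ratio is lowest in the 3 libraries without asparagine and with ISRIB at 24 h apart from 1 vehicle library of the same medium and time.

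In median change the subunits moved alike in most comparisons. They were furthest apart in 3 comparisons that include the group without asparagine and with ISRIB at 24 h. Withdrawal with ISRIB at 24 h gave -0.01 over the large and 0.14 over the small subunit, and 24 h against 6 h with ISRIB and no asparagine gave -0.03 and 0.11. The difference between times of the ISRIB response gave 0.12 and 0.27. The sign of both large-subunit values below 0 was not stable. The first was 0.01 without replicate 1 of the ISRIB group without asparagine and 0.03 without replicate 3 of that with asparagine. The second was 0.03 without replicate 1 at 24 h, 0.02 without replicate 2 at 6 h and 0.01 without replicate 3 at 6 h. Leaving out the 3 libraries of lowest GC slope gave 0.02 and 0.01. The members tested were 46 of the large and 28 of the small subunit. In the first comparison, calls were 1 up and 6 down (large) and 0 up and 2 down (small). Of all genes, 9.97% were higher and 12.2% lower there. In the second, calls were 1 up and 7 down (large) and 2 up and 0 down (small). Of all genes, 14.5% were higher and 17.8% lower there. Medians over all genes tested in these 2 comparisons were 0.01 and 0.00.

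Single genes were last set against the group. For each gene, log2 CPM was centred on its own mean and the median of the core members in the library was subtracted; the range of the 8 group means is the departure. Over the 73 core members with at least 5 CPM the median departure was 0.32. RPL4 had 0.92, with a within-group SD of 0.13, from -0.75 in the ISRIB group without asparagine at 24 h to 0.17 with ISRIB and asparagine. RPL36A had 0.68, RPL39 0.63 and RPS13 0.63, but their within-group SDs were 0.44, 0.32 and 0.34. RPL36A had only 8.30 CPM on average, RPL39 ran from 36.8 to 79.8 CPM, and RPS13 from 91.6 to 209 CPM. The libraries of their groups overlapped widely, and none of the 3 passed in any comparison.

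**Figure D5:**
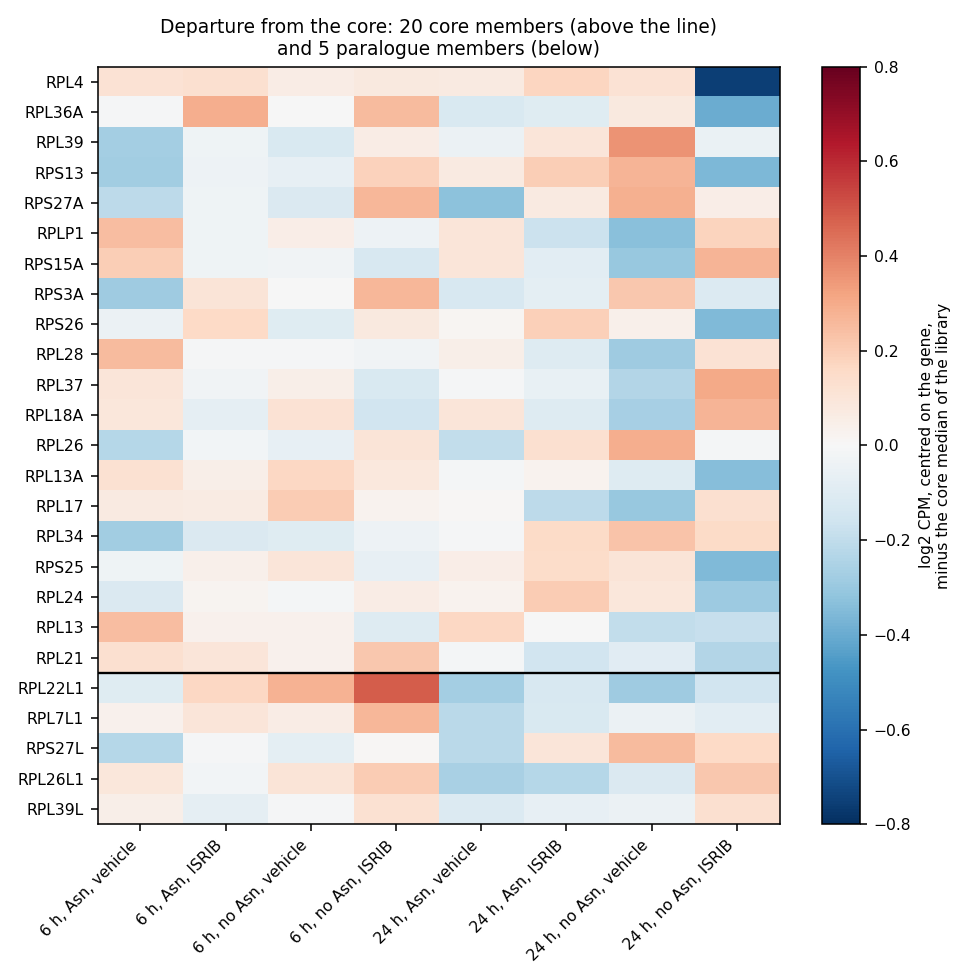
Mean per group of log2 CPM, centred on each gene and minus the core median of the library (colour), for the 20 core members of largest departure and the 5 paralogues tested. RPL4 reaches -0.75 in the group without asparagine and with ISRIB at 24 h, the strongest colour of the plot.

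Other genes of translation were read from lists. Of 19 tested genes for translation factors and other messages of the oligopyrimidine class, none rose and 2 fell for ISRIB against vehicle without asparagine at 24 h, where 10.1% of all genes were higher and 11.6% lower. They were EIF3H, a subunit of initiation factor eIF3 (-0.45 ± 0.12, edgeR adjusted p = 0.00876), and EIF4B, a helper of the helicase eIF4A (-0.20 ± 0.07, adjusted p = 0.0338). Over time with vehicle and no asparagine, 6 of the 19 fell, against 13.2% of all genes. EEF2, the elongation factor of translocation, had the smallest adjusted p (-0.59 ± 0.13, edgeR adjusted p = 0.00151). Among 160 ribosomal protein pseudogenes tested, 5 rose and 3 fell for ISRIB against vehicle without asparagine at 24 h, against 21.7% of all genes called, and RPL4P4 had the smallest adjusted p.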

How the data were processed

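RNA was sequenced from 24 libraries of PC9 cells. Bowtie2, featureCounts, DESeq2 and the build hg38 are named in the submitters' processing notes; no source used here gives versions, strandedness or settings. One deposited table held the authors' read counts per gene for 37411 genes, and a second deposited table held the authors' log2 values, tried as other input. GENCODE 29 held 36620 of these genes, including all 85 members. Counts were scaled by TMM and filtered with filterByExpr in edgeR 4.0.16 (R 4.3.3), which left 17409 genes.

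All 24 libraries entered 1 model of group means (16 residual degrees of freedom, common dispersion 0.0176). The 15 comparisons were tested by the quasi-likelihood F test, adjusted by Benjamini-Hochberg over all genes tested in each comparison, at a threshold of 0.05. The procedure was tested on simulated data. Levels per length used the exons of all annotated transcripts. Replicates were biological triplicates per the series' design text; what was replicated is not described further, so p-values measure the spread between these samples. Pseudogenes were assigned to parents by symbol, and identities came from alignment with Biopython 1.88.

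The members, lists and tests were chosen with earlier results of these data known. In each comparison of 2 groups, up to 3 members that passed were named for the largest rise and 3 for the largest fall; paralogues, the 4 largest departures among core members of at least 5 CPM, and the 3 highest and lowest per length were also named. RPS10L was not in the list of paralogues first written but fits its wording. Alternatives were RLE scaling, no filter, a replicate block, a GC correction without and with that block, a length correction, the groups compared alone, pseudogene counts added, DESeq2 1.42.0, limma 3.58.1 on the log2 values, and each library left out. Dropping the 3 libraries whose GC slope was most negative, and RPL4 from the subunit ratio, were chosen after seeing the data. The correlation of same-numbered libraries' deviations from group means was above 0.1 in all 3 pairs in 3 comparisons: withdrawal with vehicle at 6 h (lowest 0.304, highest 0.339), the same at 24 h (lowest 0.187, highest 0.350), and ISRIB against vehicle at 6 h without asparagine (lowest 0.327, highest 0.470). Protein sequences were not used here, and a few genes that the naming rule picks are not reported here.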

Additional observations from a re-analysis of the deposited data

Results flagged for a closer look

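In 6 tests the response of a member differed between media or between times (edgeR quasi-likelihood test, Benjamini-Hochberg adjustment over all genes). Of all genes tested, 9.06% were called in the interaction at 24 h and 7.59% in the difference between times. Of the 79 members, 3 were called in each. The effect of ISRIB at 24 h differed between media with and without asparagine for RPL4 (-0.80 on the log2 scale), RPL26L1 (0.47) and RPL18 (0.55). The effect of ISRIB without asparagine differed between 24 h and 6 h for RPL4 (-0.67), RPL26L1 (0.45) and RPS20 (0.66). Without asparagine at 24 h, RPL4 was lower in 3 of 3 ISRIB libraries than in any vehicle library, and RPL26L1, RPL18 and RPS20 were higher in 3 of 3. RPL18, with an adjusted p of 0.0481, lost its call in 23 of 35 alternatives, 19 of which leave out 1 library. RPS20, with 0.0359, lost it in 8, each without 1 library.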

How the results depend on the processing

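No direction of a named gene that passed reversed in any alternative run, and RPL4 kept its call in all of them. With no filter on low counts the numbers of members called were 5 for vehicle withdrawal at 24 h, 24 for ISRIB against vehicle without asparagine at 24 h, 19 for the interaction at 24 h and 22 for the difference between times. Over time they were 0 (vehicle with asparagine), 16 (vehicle without) and 0 (ISRIB with asparagine). With the groups compared alone they were 3 for withdrawal with ISRIB at 24 h, 27 for ISRIB without asparagine at 24 h, and 1 for the interaction. Over time they were 5, 21, 0 and 2 in the order vehicle with and without and ISRIB with and without asparagine. The GC correction gave 20, 7 and 10 for ISRIB without asparagine at 24 h, the interaction and the difference between times. DESeq2 gave 7 for the last. Without the 3 libraries whose GC slope was most negative the counts were 31 (ISRIB without asparagine at 24 h), 25 (time, vehicle without asparagine), 5 (time, ISRIB with asparagine) and 5 (difference between times). The cause of these shifts was not tested. Counts of members under other settings, here and elsewhere in the text, stand without the share of all genes called there. They are not read as changes particular to the ribosomal protein genes.

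The replicate block gave 4 for time with ISRIB and asparagine and 7 for the difference between times, and moved no other count by over 1.5 times. Where the replicate numbers pair the libraries by their correlation, no member was called with or without the block. No call could therefore be lost there. Of the 24 libraries, 16 correlated best with one of their own number. The GC correction with the replicate block gave 23 (withdrawal with ISRIB at 24 h), 25 (ISRIB without asparagine at 24 h), 12 (interaction) and 17 (difference between times), and over time 4, 19, 5 and 24 in the order above.

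With each library left out in turn, the counts ran from 6 to 11 (withdrawal with ISRIB at 24 h), 3 to 20 (ISRIB without asparagine at 24 h), 1 to 5 (interaction at 24 h) and 1 to 8 (difference between times). Over time they ran from 1 to 2, 4 to 12, 0 to 4 and 6 to 16 in the order above. The other counts stayed at 0 to 0. The subunit ratio ran from 1.61 to 1.62. It was 1.73 with pseudogene counts added, 1.22 with each member weighted equally and 1.54 without RPL4. Depth limits what can be said of RPS26, RPL17, RPL21 and RPL36A, at a few CPM each.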

Other observations

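The genes for mitochondrial ribosomal proteins, which serve the separate ribosomes of the mitochondrion, gave values of their own. For ISRIB against vehicle without asparagine at 24 h, 20 of 74 tested rose and 5 fell (edgeR quasi-likelihood test, 21.7% of all genes called), with a median log2 change of 0.19, beside 0.06 over the cytosolic core and 0.00 over all genes. By smallest adjusted p, MRPL14 rose by 0.58 ± 0.09, MRPL21 by 0.51 ± 0.10 and MRPL40 by 0.41 ± 0.08, while MRPS27 fell by 0.41, MRPS35 by 0.86 and MRPS11 by 0.43. Cytosolic and mitochondrial genes were not tested against each other.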
